A study of Mus musculus with 53 samples.

Results

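Common enhancers at promoters are stretches of chromatin that carried both enhancer-associated histone marks in naive pluripotent cells and in naive endoderm, and that contain or lie beside a gene's start site. They were selected on the deposited CUT&RUN peaks of 12 histone libraries. An enhancer of a culture was a merged H3K27ac region, with peaks of both its libraries, that overlapped by at least 1 bp a merged H3K4me1 region of both libraries. Overlapping 2iLIF and NACL enhancers were merged, the result was merged with the nEnd enhancers it overlapped, and a merged region was kept when a GENCODE transcription start site lay inside it or within 1 kb of it. The rule left 2085 of 2859 common enhancers and of 14647 enhancers in all classes. The other classes used for comparison were the 774 common enhancers without a start site in reach (common distal) and the PrE and pluripotency enhancers at start sites. The PrE (primitive endoderm) class held 2257 nEnd enhancers that overlapped no merged enhancer of 2iLIF and NACL. Overlap with an enhancer of a single medium was allowed, and 2iLIF H3K27ac peaks overlapped 86.2% and 92% of the class (B9, B12). The pluripotency class held 2407 merged enhancers of 2iLIF and NACL that overlapped no nEnd enhancer.

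All libraries come from SGGC cells, mouse embryonic stem cells of the E14JU line with a SOX2-GFP and a GATA6-mCherry reporter, in the 2 clones B9 and B12. 2iLIF and NACL are media for naive pluripotent cells, nEnd is a culture of naive extra-embryonic endoderm stem cells, and KOSR is a serum replacement culture from which SOX2+ cells (reporter of SOX2 only) and DP cells (double positive for SOX2 and GATA6) were sorted. The 12 histone libraries that define the regions were 2 of each mark in 2iLIF, NACL and nEnd, 1 per clone except that both nEnd H3K4me1 libraries are labelled clone B9. SOX2 was profiled in 10 libraries (2iLIF B9 and B12, NACL B9 and B12, SOX2+ A, A1 and B, DP A, A1 and B) and GATA6 in 5 (DP A, A1 and B, nEnd B9 and B12). The SOX2 libraries of 2iLIF, NACL and SOX2+ are called pluripotent libraries below, a group name that says nothing about the potency of DP cells. The letters A, A1 and B are the experiment labels of the KOSR sorts, all of clone B12, so their spread holds no difference between clones, and the labels do not say whether the samples are separate cultures. NACL B12 SOX2 was assigned by its title, as its source name gives no medium. The title of the DP A GATA6 library ends in sub02, which the sources used here do not explain.

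H3K27ac is an acetyl mark of active enhancers and promoters, and H3K4me1 marks enhancers whether active or poised. At an active start site the monomethyl mark usually gives way to trimethylation and stands on the flanks. SOX2 is an HMG-box factor that binds with OCT4 at enhancers of the pluripotency network, and GATA6 is a zinc-finger factor that drives primitive endoderm. The libraries held 1378 to 29623 SOX2 peaks and 1391 to 32510 GATA6 peaks, with the fewest in DP B for both, so shares of peaks and ratios within a library were used for comparisons and the number of regions with a peak is given as a description.

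The sequences printed first are 200 bases of GRCm38, plus strand, centred on the highest SOX2 or GATA6 maximum in a region whose window held no annotated exon. Capitals mark the SOX letters CATTGT or CTTTGT and the GATA letters AGATAA, on either strand. They are shown because they come from the region with the most SOX2 peaks per kb (Mir290a), from 3 regions of well-known genes with SOX2 in every library (Nanog, Sall4 and Ccn2), from a region with many peaks of both factors (Gm43399), and from 2 regions rich in nEnd GATA6 (Lamc1 and Mybl2).
Mir290a, SOX2 in NACL B9, chr7:3212192-3212391: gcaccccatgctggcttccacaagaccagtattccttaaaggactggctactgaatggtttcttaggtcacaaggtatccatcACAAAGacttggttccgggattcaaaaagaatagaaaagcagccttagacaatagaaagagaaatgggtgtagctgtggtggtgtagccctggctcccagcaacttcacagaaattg
Nanog, SOX2 in NACL B9, chr6:122702935-122703134: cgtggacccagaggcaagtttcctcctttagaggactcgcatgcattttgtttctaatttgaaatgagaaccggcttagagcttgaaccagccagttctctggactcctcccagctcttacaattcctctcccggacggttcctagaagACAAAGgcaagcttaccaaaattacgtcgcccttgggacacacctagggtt
Sall4, SOX2 in NACL B9, chr2:168762722-168762921: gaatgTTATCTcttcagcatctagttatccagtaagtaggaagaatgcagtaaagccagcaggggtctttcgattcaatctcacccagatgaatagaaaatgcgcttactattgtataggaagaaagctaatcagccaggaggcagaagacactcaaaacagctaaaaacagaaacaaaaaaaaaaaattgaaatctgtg
Ccn2, SOX2 in NACL B9, chr10:24590611-24590810: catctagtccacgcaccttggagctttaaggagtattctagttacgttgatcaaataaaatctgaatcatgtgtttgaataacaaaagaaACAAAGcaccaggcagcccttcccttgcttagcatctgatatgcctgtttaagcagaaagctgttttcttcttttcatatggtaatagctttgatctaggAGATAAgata
Gm43399, GATA6 in nEnd B12, chr5:119588982-119589181: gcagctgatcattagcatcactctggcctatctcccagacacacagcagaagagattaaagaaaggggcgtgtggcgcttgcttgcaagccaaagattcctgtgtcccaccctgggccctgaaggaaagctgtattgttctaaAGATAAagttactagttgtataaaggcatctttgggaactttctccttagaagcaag
Lamc1, GATA6 in nEnd B12, chr1:153320907-153321106: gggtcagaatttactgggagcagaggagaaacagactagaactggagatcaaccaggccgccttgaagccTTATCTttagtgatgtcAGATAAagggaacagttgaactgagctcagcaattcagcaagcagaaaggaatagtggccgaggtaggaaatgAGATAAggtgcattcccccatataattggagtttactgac
Mybl2, GATA6 in nEnd B12, chr2:163067354-163067553: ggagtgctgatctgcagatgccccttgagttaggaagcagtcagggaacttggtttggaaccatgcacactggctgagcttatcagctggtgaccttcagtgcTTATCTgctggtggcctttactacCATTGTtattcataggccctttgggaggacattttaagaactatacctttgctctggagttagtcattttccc

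Each Lamc1, Gm43399 and Mybl2 window held the GATA letters, 3 times in Lamc1, and the Mybl2 window also held CATTGT. The Ccn2 window, taken at a SOX2 maximum, held CTTTGT and AGATAA, and the Sall4 window, also at a SOX2 maximum, held AGATAA and neither of the SOX letters. The Ccn2 maximum lay 3.05 kb from the nearest start site, that of Nanog 4.01 kb and that of Mir290a 6.33 kb. At Gm43399 the highest SOX2 maximum in DP A had the window chr5:119589012-119589211, which overlaps the GATA6 window printed for nEnd B12 and holds the same AGATAA and neither of the SOX letters.

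The 250 bases before the RefSeq start site of Kat6b, a histone acetyltransferase gene in one of the 10 widest regions, and of Klf4, a pluripotency factor, are printed in the direction of transcription (GRCm38.p6), with the GC box letters GGGCGG in capitals on either strand.
Kat6b, chr14:21499520-21499769, plus strand: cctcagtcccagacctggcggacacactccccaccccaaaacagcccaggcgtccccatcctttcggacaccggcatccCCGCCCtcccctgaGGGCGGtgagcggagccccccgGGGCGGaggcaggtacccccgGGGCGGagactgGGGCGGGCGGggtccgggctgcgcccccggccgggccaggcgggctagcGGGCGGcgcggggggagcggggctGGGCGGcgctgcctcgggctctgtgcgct
Klf4, chr4:55532476-55532725, minus strand: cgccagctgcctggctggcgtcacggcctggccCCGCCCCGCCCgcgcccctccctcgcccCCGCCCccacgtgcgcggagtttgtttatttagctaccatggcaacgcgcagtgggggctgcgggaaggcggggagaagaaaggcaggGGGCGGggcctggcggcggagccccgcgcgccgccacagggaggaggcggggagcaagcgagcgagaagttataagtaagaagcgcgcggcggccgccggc

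The Kat6b stretch was 78.8% G or C with 8 GC boxes, counting overlapping ones, and the Klf4 stretch was 74% G or C with 4. Among RefSeq promoters (250 bases before to 50 after the start), 2157 promoters of 1715 protein-coding genes lay at common enhancers, and their median G+C content was 62.7%, against 57% for all 20150. GGGCGG stood in 67.6% of them and in 47.8% of all promoters. The ETS letters CCGGAA stood in 26.2% against 19.2%, and the TATA letters TATAAA in 5.93% against 12.2%. AGATAA stood in 5.29% against 9.45% and CATTGT in 7.46% against 10.5%. PrE and pluripotency enhancers at promoters had nearby values, with GGGCGG in 64.8% and 61% and AGATAA in 5.84% and 7.44%. These counts are descriptions of letters, and promoters of 1 gene can overlap.

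The regions were broad. Their widths ran from 3820 to 162364 bp with a median of 24629 bp, and the 25th and 75th percentiles were 15479 and 38017 bp. At promoters the median was 9945 bp in the PrE class and 8738 bp in the pluripotency class, and common distal enhancers had 10703 bp. Of the 2085 regions 282 (13.5%) exceeded 50 kb and 33 exceeded 100 kb, and together they covered 62.9 Mb, 18% of it within 1 kb of a start site. The rule merges the enhancers of 3 cultures and asks for a start site, so width is not independent of it and these values carry no test. The widest contributing enhancer of a region had a median width of 17460 bp in nEnd, 12117 bp in NACL and 11490 bp in 2iLIF.

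**Figure D1:**
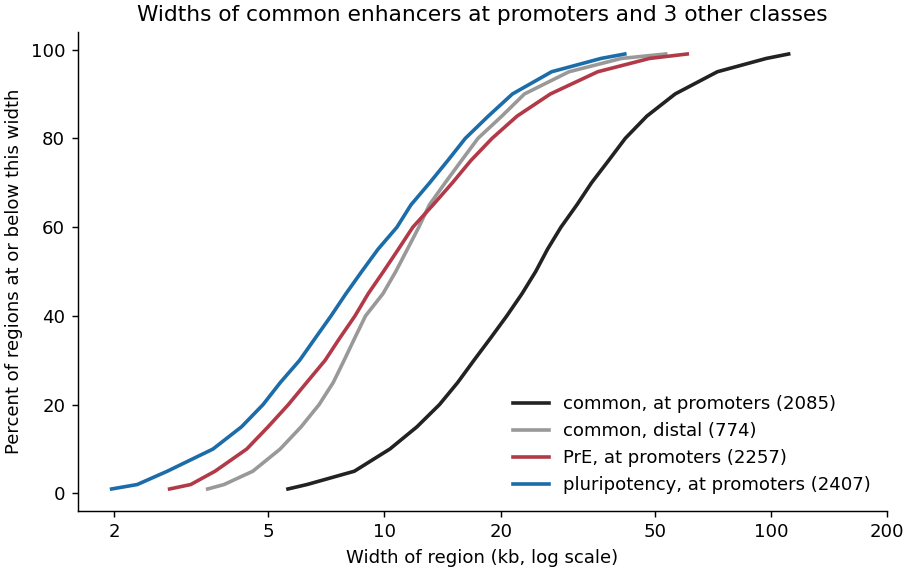
Cumulative percent of regions (vertical axis) at or below a width in kb (horizontal axis, log scale) in 4 classes of enhancers. The curve of common enhancers at promoters, with a median of 24629 bp, runs to the right of the 3 others, whose medians lie between 8738 and 10703 bp.

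How the cultures built a region differed. The 2085 regions joined 4438 enhancers of 2iLIF, 3704 of NACL and 2336 of nEnd. A single nEnd enhancer took part in 1868 regions (89.6%), whereas a single 2iLIF enhancer did in 937 (44.9%) and a single NACL enhancer in 1159 (55.6%). The nEnd enhancers covered a median of 91.2% of a region's bases, those of 2iLIF 73.9% and those of NACL 74.5%. In 1255 regions (60.2%) the widest contributing enhancer was from nEnd, and in 666 (31.9%) each culture gave 1 enhancer. Many regions were thus 1 nEnd enhancer joined with several of the pluripotent media. The nEnd lists held fewer but longer H3K27ac regions, 14727 with a median of 6993 bp against 135612 with a median of 2018 bp in 2iLIF, and the part of peak calling in this difference was not tested.

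At 2058 regions (98.7%) a start site lay inside, and the other 27 reached one within 1 kb outside. The regions just inside the limit ended 955 bp from a start site of Osgep and 943 bp from one of Gm48676, and those just outside lay 1081 bp from Gm22662 and 1083 bp from Tex2.

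The regions reached 3944 annotated genes. Of 21938 protein-coding genes 2446 had a start site within 1 kb of one, which is 11.1% and serves as the background for the gene groups below. One protein-coding gene stood at 1396 regions (67%), at least 2 at 486 (23.3%) and none at 203 (9.74%). The region with most protein-coding genes held 9 of them, including Sox15, Cd68 and Eif4a1. Besides these there were 228 lincRNA, 261 antisense RNA and 167 miRNA genes.

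Genes of the pluripotency network were frequent. Of 27 pluripotency factors 15 had a start site at a common enhancer, among them Pou5f1 (OCT4), Nanog, Sall4, Klf2, Klf4, Klf5, Tbx3, Tfcp2l1 and Zfp42. The LIF and STAT3 pathway, which maintains naive cells, had 7 of 12, with the receptor subunits Lifr and Il6st, the transducer Stat3 and its feedback inhibitor Socs3. Of 26 KLF and SP factors, which bind GC-rich promoters, 11 were there. The FGF and ERK pathway, which favours primitive endoderm over epiblast, had 9 of 23, including the receptor Fgfr2, the adaptor Grb2, the kinases Map2k1 and Mapk3 and the inhibitors Spry2 and Spred2.

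None of 16 primitive endoderm factors stood at a common enhancer, and 8 of them stood at PrE enhancers, which reached 10.15% of all protein-coding genes. None of 6 GATA factors did either, with 2 at PrE enhancers. The basement membrane and endocytic genes of endoderm were divided, with 8 of 21 at common enhancers, such as Lama1, Lamb1, Lamc1, Nid2, Hspg2 and Sparc, and 13 at PrE enhancers, a gene being counted in both where its start sites are. Of 20 WNT pathway genes 8 stood at common enhancers, with Ctnnb1 (beta-catenin), its destruction partners Apc, Gsk3a and Gsk3b, and the receptors Fzd5, Fzd7 and Lrp5. The Hippo pathway had 6 of 19, with the coactivators Yap1 and Wwtr1 and their DNA-binding partners Tead1 and Tead4.

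Among general cell functions there were 14 of 82 ribosomal proteins (17.1%), 16 of 81 respiratory chain subunits (19.8%), 19 of 68 translation factors (27.9%) and 2 of 39 proteasome subunits (5.13%). Chromatin regulators had 19 of 49, among them Ctcf, Ezh2, Eed, Dnmt3a, Dnmt3b, Tet1 and Tet2. The immediate early and MYC genes had 6 of 22, such as Junb, Atf3, Btg2 and Ier2. None of 20 neural transcription factors and none of 1093 olfactory receptors stood at one, and 1 of 39 Hox genes did. These lists were compiled with results of the same data in view, so the counts are descriptions beside the background and carry no test.

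Of the 10 widest regions 9 are described, with start sites of Rbpms, Adamts9, Tead1, Ptpn14 with Smyd2, Ssbp3, Atxn10, Shroom3, Tbl1xr1 and Kat6b, in that order. The widest, chr8:33771827-33934190, covered 162364 bp around Rbpms, an RNA-binding protein gene, and joined 9 enhancers of 2iLIF, 6 of NACL and 2 of nEnd. Another, chr6:92795238-92946048, at the extracellular protease gene Adamts9, was covered throughout by 1 nEnd enhancer but only to 12.2% by those of 2iLIF and 12.9% by those of NACL.

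The share of a region covered by each culture varied among the others. At Ptpn14 and Smyd2 (chr1:189751942-189887199) and at Atxn10 (chr15:85330573-85462002) nEnd covered 100% and 98.1%, and 2iLIF 19% and 13%. At Kat6b (chr14:21466399-21591876) and Tbl1xr1 (chr3:22070421-22196538), a corepressor subunit gene, the order was the reverse, with 99.5% and 92.6% in 2iLIF and 41.8% and 77.3% in nEnd. The region of Tead1 (chr7:112747044-112896865) joined 14 enhancers of 2iLIF and 6 of NACL in 1 nEnd enhancer, and that of Ssbp3 (chr4:106906261-107040278), a cofactor gene of LIM-domain transcription complexes, joined 16 and 7 in 1. Shroom3 (chr5:92836705-92962830), a gene of apical constriction in epithelia, had 100% in nEnd and 34.4% in 2iLIF.

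Factor peaks were distributed unevenly over these 9. At Rbpms the SOX2 libraries had 9 and 5 peaks in 2iLIF (B9, B12), 14 and 9 in NACL, 8, 11 and 6 in SOX2+ (A, A1, B) and 2, 3 and 0 in DP, and GATA6 had 1, 2 and 1 in DP and 13 and 19 in nEnd (B9, B12). At Adamts9 SOX2 had at most 4 peaks, in NACL B9, while GATA6 had 17 in each nEnd library. At Atxn10 no SOX2 library had a peak and nEnd had 5 GATA6 peaks in each library. Kat6b was the most even, with 1, 3 and 1 SOX2 peaks and 6, 1 and 1 GATA6 peaks in DP, 3 to 10 SOX2 peaks in the pluripotent libraries and 6 and 11 GATA6 peaks in nEnd. In each of the 9 the nEnd libraries exceeded every DP library in GATA6 peaks or equalled it, and the equal cases were Kat6b, with 6 in DP A and in nEnd B9, and Ssbp3, with 2 in each of them.

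**Figure D2:**
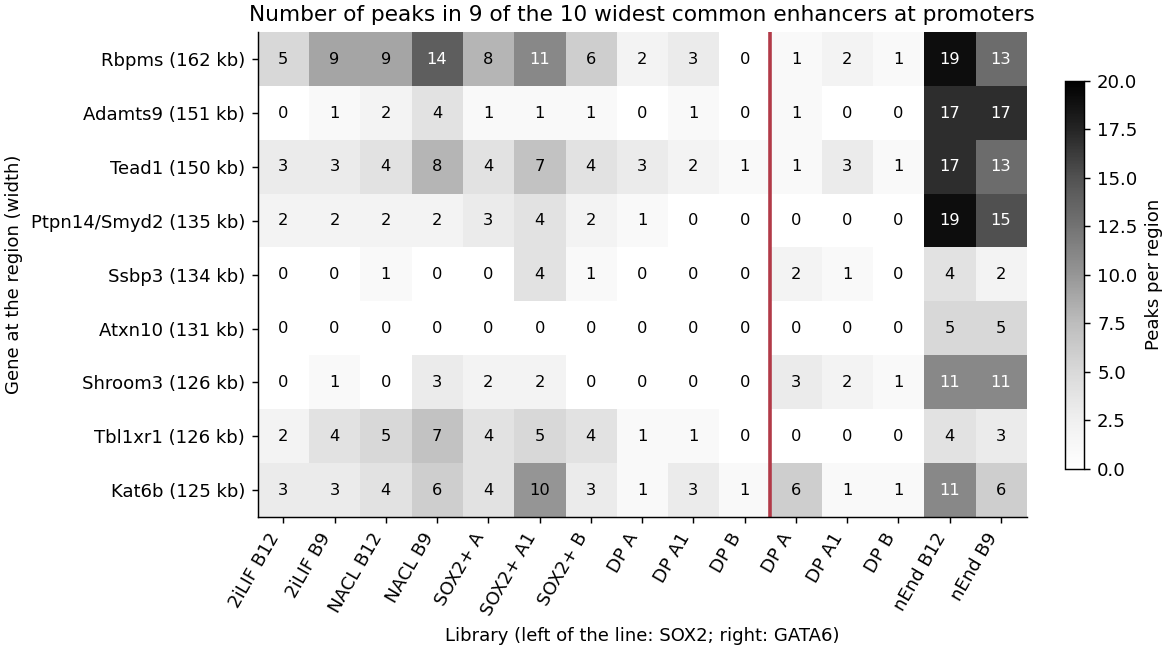
Number of peaks in 9 of the 10 widest common enhancers at promoters (rows, named by gene with their width in kb) in each library (columns). Cells left of the line are SOX2 and cells right of it GATA6, and darker cells hold more peaks, up to 19 at Rbpms and at Ptpn14 with Smyd2 in nEnd B12 and 0 for SOX2 throughout Atxn10.

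Relative to width, SOX2 peaks were densest at the miR-290 cluster. This region, chr7:3198409-3224890 (26482 bp), joined 1 enhancer of each culture and had 7 and 6 SOX2 peaks in 2iLIF (B9, B12), 11 and 11 in NACL, 12, 13 and 8 in SOX2+ (A, A1, B) and 8, 10 and 4 in DP, which is 3.4 peaks per kb summed over the 10 libraries. GATA6 had 4, 2 and 0 peaks there in DP and 3 and 5 in nEnd. The cluster encodes the main miRNAs of mouse embryonic stem cells, and RefSeq lists 17 mature sequences from 9 genes within the region. Of these, 3 share the seed AAGUGCU (bases 2 to 8, in capitals), which is known to restrain inhibitors of the cell cycle.
mmu-miR-291a-3p: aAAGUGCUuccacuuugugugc
mmu-miR-294-3p: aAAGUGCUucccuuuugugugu
mmu-miR-295-3p: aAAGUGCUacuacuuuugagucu

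The next densest in SOX2 among regions of at least 5 kb were a cluster of histone genes (Hist1h1b, Hist1h2an, Hist1h2bp and Hist1h3i, 2.76 peaks per kb), Dppa5a with Ooep, genes of pluripotent cells and oocytes (2.2), Nmnat2 (2.16) and the RNA gene Gm26296 (2.13). For GATA6, summed over its 5 libraries, the densest were the regions of the cytokine gene Il33 (2.39 peaks per kb), of Gm43399 (1.63), of the decarboxylase gene Ddc (1.48), of Cd59a (1.183) and of Cyp2s1 (1.14). The sum joins libraries of very different peak numbers, and the order can differ within DP or nEnd alone. The Il33 region, chr19:29944319-29949335, was only 5017 bp wide and had exactly 1 SOX2 peak in each of the 10 libraries beside 1 to 4 GATA6 peaks in each of the 5. The region of Gm43399, chr5:119577541-119598402, had 4, 5 and 3 SOX2 peaks in DP (A, A1, B) against 1 to 5 in the pluripotent libraries, and 8, 5 and 6 GATA6 peaks in DP against 5 and 10 in nEnd. At Ddc SOX2 had at most 1 peak in any library, although GATA6 had 3, 3 and 1 in DP.

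Genes of the listed pathways differed in their peaks. Nanog (19861 bp) had SOX2 peaks in all 10 libraries, 20 in sum, and 2 GATA6 peaks in sum, in 2 libraries. Pou5f1 (19133 bp) had 24 SOX2 peaks in 9 libraries and 5 GATA6 peaks in 3, including 3 in DP A1. Sall4 with Atp9a (34354 bp) had 54 SOX2 peaks in 10 libraries and 15 GATA6 peaks in 5. Lifr lay in 2 adjacent regions, a first of 48850 bp with 44 SOX2 and 22 GATA6 peaks in all 15 libraries and a second of 36483 bp with no SOX2 peak and 3 GATA6 peaks in nEnd.

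Some regions had no called peak of one or both factors, and others had many. Klf5 (21251 bp) had no SOX2 peak and 3 GATA6 peaks, all in nEnd, and Grb2 (31934 bp), Ptpn11 (12618 bp), Klf16 (12390 bp) and Nr4a1 (11472 bp) had none of either factor. At Tet2 SOX2 had 16 peaks in 7 libraries and GATA6 none. Lamb1 (92200 bp), which encodes a laminin chain of the basement membrane, was covered to 100% by nEnd and to 3.24% by 2iLIF enhancers and had 4 SOX2 and 24 GATA6 peaks. Lamc1 (122495 bp), encoding its partner chain, had 35 SOX2 and 39 GATA6 peaks.

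Over the whole class a SOX2 peak stood in 907 and 695 regions in 2iLIF (B9, B12), 1432 and 1050 in NACL, 1068, 1249 and 826 in SOX2+ (A, A1, B) and 567, 636 and 224 in DP. For GATA6 the numbers were 785, 460 and 184 in DP and 1528 and 1696 in nEnd (B9, B12). They follow the number of peaks in the library, from 10.7% of regions in DP B to 68.7% in NACL B9 for SOX2. No SOX2 library had a peak in 474 regions (22.7%), and all 10 had one in 198 (9.5%). For GATA6 these were 304 (14.6%) and 172 (8.25%) regions, and 798 regions (38.3%) had a peak in exactly 2 of the 5 libraries. A peak in all 15 libraries was found in 51 regions (2.45%), of which the widest were at Tead1, Kat6b, Tns3, Usp7 with Gm5767, and Arhgap21. The counts in this paragraph have no share over all classes beside them and only describe the regions.

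Set beside all 14647 classed enhancers, the regions held peaks more often, and they were also wider, for which these shares are not adjusted. The narrower common distal enhancers are given beside them. At least 2 of the 3 DP libraries had a SOX2 peak in 497 regions (23.8%, all classes 11%, common distal 22.2%), and all 7 pluripotent libraries in 557 (26.7%, all classes 14.5%, common distal 23.9%). GATA6 stood in at least 2 of the 3 DP libraries in 446 (21.4%, all classes 9.32%, common distal 19.1%) and in both nEnd libraries in 1474 (70.7%, all classes 40.3%, common distal 71.8%). SOX2 in all 7 pluripotent libraries together with GATA6 in both nEnd libraries was found in 463 regions (22.2%, all classes 6.37%, common distal 19.8%). Neither factor had a peak in any library in 135 (6.47%, all classes 21.7%, common distal 6.72%).

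A SOX2 peak in at least 2 DP libraries and in no pluripotent library occurred in 6 regions (0.288%, all classes 0.457%), and a peak in all 7 pluripotent and in no DP library in 95 (4.56%, all classes 4.22%), near the background in both cases. A region bound by SOX2 and GATA6 together in DP (overlapping peaks, each factor in at least 2 of 3 libraries) lay in 174 of the common enhancers at promoters (8.35%, all classes 3.6%). These held 209 of the 984 co-bound regions, or 21.2%, and 15.3% of the 209 were centred within 1 kb of a start site. The common distal class, at 9.95%, had a like share although its regions were narrower.

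Wider regions were bound more often but not more densely. With the regions ranked by width in 4 equal groups, in the narrowest group 34.8% ± 8.95 (SD, n = 3) had a SOX2 peak in SOX2+ cells and in the widest group 68.1% ± 8.88, while the density went from 46.3 ± 14.3 to 30.5 ± 10.3 peaks per Mb. For GATA6 in nEnd the shares were 65.9% ± 5.42 and 90.7% ± 3.93 (n = 2), and the densities 109 ± 26.5 and 72 ± 16.6 peaks per Mb. The same order held for the means of 2iLIF, NACL and DP in both factors profiled there.

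Peaks per Mb of region were used to compare the class with its neighbours within each library. SOX2 was sparser in common enhancers at promoters than in common distal enhancers in all 10 libraries. The densities were 20.7 ± 5.43 against 39.6 ± 9.12 peaks per Mb in 2iLIF (n = 2), 41.5 ± 14.1 against 73.5 ± 22.5 in NACL (n = 2), 33.8 ± 11.1 against 52.4 ± 13.6 in SOX2+ (n = 3) and 10.9 ± 5.81 against 20.9 ± 10.7 in DP (n = 3). The mean log2 ratio was -0.84 ± 0.15 (n = 10), a ratio of 0.559 (exact sign-flip test over libraries, two-sided, adjusted p = 0.0107 over the 11 tests). It kept this sign when only bases beyond 1 kb of a start site were counted (-0.88). For GATA6 the log2 ratio was -0.87 ± 0.23, negative in 5 of 5 libraries, and the exact test cannot go below p = 0.0625 there (adjusted p = 0.115). Counted as regions with a peak, it turned to 0.097.

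Against PrE enhancers at promoters SOX2 was denser in common enhancers at promoters in 10 of 10 libraries, with a log2 ratio of 1.29 ± 0.21 or 2.44-fold (exact sign-flip test, adjusted p = 0.0107). PrE and pluripotency enhancers were set apart from common enhancers by marks in 2iLIF, NACL and nEnd. Ratios over them, for SOX2 and for GATA6, are therefore not independent of the rule. Against pluripotency enhancers at promoters SOX2 was sparser, at -0.38 ± 0.31 (exact sign-flip test, adjusted p = 0.0458), and 8 of 10 libraries were negative. The 2 libraries above 0 were DP A1 and DP B. The call held without either of them and was lost when any of the other 8 libraries was left out, with ratios from -0.41 to -0.34. Within 1 kb of start sites alone this last ratio was -0.23 and missed the threshold (exact test, adjusted p = 0.154). When regions with a peak were counted in place of peaks per Mb, the signs against common distal and pluripotency enhancers turned, to 0.13 and 0.67 on the log2 scale, and the ratio against PrE enhancers at promoters was 1.89. All of these passed the threshold, the turned ones included (exact sign-flip test, adjusted p = 0.00716 each). The direction against common distal and pluripotency enhancers thus depended on the measure. Neither these counts nor the densities in any class comparison are adjusted for width. In the narrowest group of common enhancers at promoters, SOX2 had 28.4 (2iLIF), 60.3 (NACL), 46.3 (SOX2+) and 14.3 (DP) peaks per Mb. All pluripotency enhancers at promoters had 33.5, 65.7, 44.2 and 10.7 in that order. The densities of the narrowest group lay below the common distal means given above.

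The GATA6 ratio of common over pluripotency enhancers at promoters was above 0 in 5 of 5 libraries but was not called (log2 ratio 1.14 ± 0.62, adjusted p = 0.115 by the exact test, whose smallest p is 0.0625; 1.92 with 1391 peaks of each library), with 0.59 to 0.76 in DP and 1.78 and 1.85 in nEnd. Against PrE enhancers at promoters the ratio was within the spread between libraries (-0.14 ± 0.35, exact test, adjusted p = 0.438): nEnd B9 and B12 were at -0.54 and -0.49 and the DP libraries between -0.01 and 0.18. Counted as regions with a peak, the GATA6 ratio turned to 0.66 against PrE enhancers at promoters (exact test, adjusted p = 0.115) and was 1.97 against pluripotency enhancers at promoters. With a peak in either histone library enough, the ratio against PrE enhancers at promoters was 0.046. In nEnd the density was 77.5 ± 18.7 peaks per Mb in common, 110.1 ± 23.7 in PrE and 22.1 ± 6.05 in pluripotency enhancers at promoters (n = 2).

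**Figure D3:**
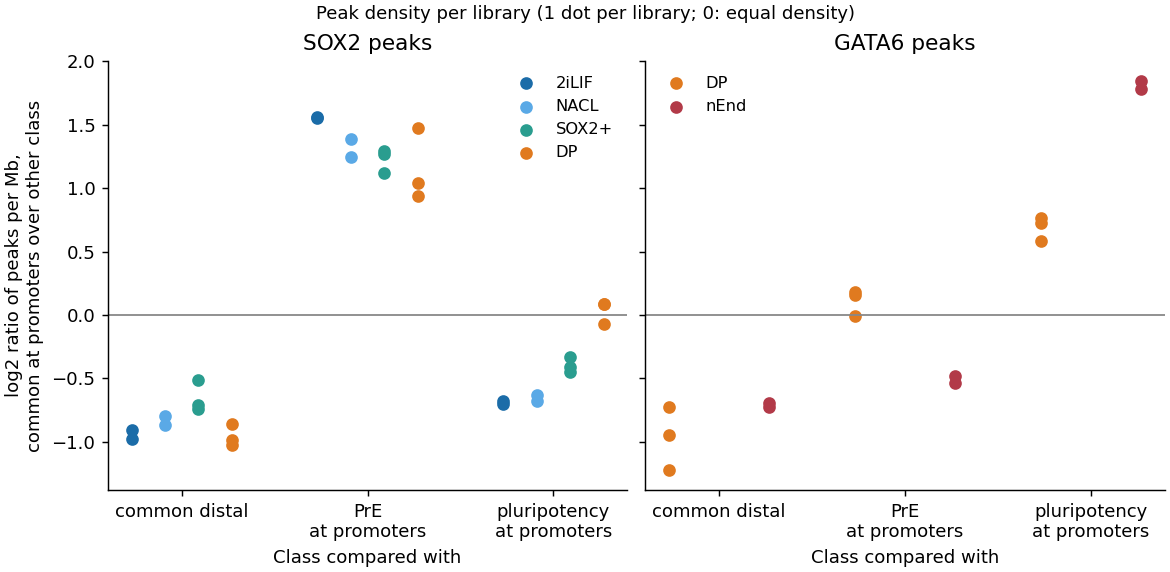
Log2 ratio (vertical axis) of peaks per Mb in common enhancers at promoters over each of 3 other classes (horizontal axis), with 1 dot per library, coloured by population, for SOX2 (left) and GATA6 (right). SOX2 dots lie below 0 against common distal enhancers and above 0 against PrE enhancers, and against pluripotency enhancers the DP dots lie near 0, apart from the other populations.

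DP cells stood apart from the pluripotent libraries in one of these ratios. SOX2 density over pluripotency enhancers at promoters was 0.03 ± 0.09 on the log2 scale in DP (n = 3) and -0.56 ± 0.15 in the 7 pluripotent libraries, a difference of 0.59 with no overlap of the groups. The exact permutation test gave p = 0.0167, the smallest that 3 against 7 libraries allow, and p = 0.1 after adjustment over 6 such comparisons, which were chosen after seeing the data. The ratios over common distal and PrE enhancers overlapped between DP and pluripotent libraries (adjusted p = 0.25 and 0.28, exact permutation tests).

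The share of a library's SOX2 peaks that fell in common enhancers at promoters was higher in DP. It was 16.6%, 18.2% and 19.7% in DP A, A1 and B. In the pluripotent libraries it was 11.7% and 12.9% in 2iLIF (B9, B12), 10.9% and 11.6% in NACL and 12.9%, 13.6% and 13.4% in SOX2+ (A, A1, B). The lowest DP library thus exceeded every pluripotent one, and the difference of the means, 18.2% ± 1.57 (n = 3) against 12.4% ± 1 (n = 7), was 5.77 percentage points (exact permutation test over 120 splits, two-sided, p = 0.0167, adjusted p = 0.0458). With equal numbers of the strongest peaks from each library, 1378, it was 4.37 points (adjusted p = 0.0483, exact permutation test), and with regions from the stronger 50% of histone peaks 3.84 points (adjusted p = 0.0458, exact permutation test). Leaving out any single SOX2 library kept the difference between 4.99 and 6.56 points but lost the call, as the smallest p such a split allows is then 0.0238 or 0.0556 before adjustment. Set against the SOX2+ libraries only, the difference was 4.92 points, with 3 of 3 experiments higher (exact permutation test, p = 0.1, the smallest possible, adjusted p = 0.157), and it was 3.27 points with equal peak numbers or with the stronger 50% of histone peaks.

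Other classes moved as well. The share of SOX2 peaks in any classed enhancer was 51.9% ± 3 in DP and 41.4% ± 2.57 in the pluripotent libraries. Common enhancers at promoters took 35% ± 1.25 of those peaks in DP (33.6% to 35.8%) and 30.1% ± 2.28 in pluripotent libraries (28% to 34.1%), and on this scale the groups overlapped. In common distal enhancers the share was 5.71% ± 0.53 in DP (5.36% to 6.31%) against 3.47% ± 0.35 in the pluripotent libraries (3.07% to 4.11%), again without overlap. In PrE enhancers at promoters it was 4.03% ± 0.47 in DP against 2.42% ± 0.38, and in pluripotency enhancers at promoters 7.63% ± 0.31 against 7.84% ± 0.54. In PrE distal enhancers it was 4.72% ± 0.53 against 2.07% ± 0.21, without overlap, and in pluripotency distal enhancers 11.6% ± 1.72 against 13.1% ± 1.72. DP libraries also had the fewest peaks, 1378 to 5320, against 8203 to 29623.

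For GATA6 the share was 14.9%, 16.4% and 15.6% in DP (A, A1, B) and 16.7% and 17.5% in nEnd (B9, B12). All DP values lay below the nEnd values, by 1.48 points in the mean, and 3 against 2 libraries cannot give p below 0.2 (exact permutation test, p = 0.2, adjusted p = 0.244). With the 1391 strongest peaks of each library the difference was -3.03 points and the groups overlapped, with 258, 240 and 217 of these peaks in the regions in DP and 252 and 309 in nEnd (exact permutation test, p = 0.4, adjusted p = 0.489). With regions defined by a peak in either histone library it was -3.43 points. DP had 1391 to 8316 GATA6 peaks and nEnd 24223 and 32510.

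**Figure D4:**
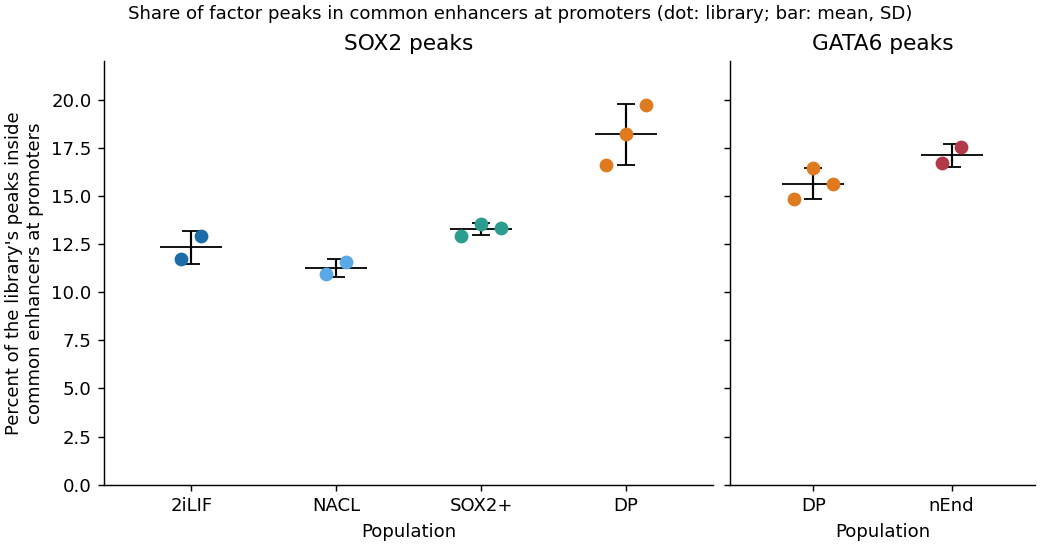
Percent of each library's SOX2 (left) or GATA6 (right) peaks that lay in common enhancers at promoters. Dots are libraries, and bars give the mean and SD of each population. The 3 DP libraries, at 16.6% to 19.7%, lie above the 7 pluripotent SOX2 libraries, at 10.9% to 13.6%.

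Inside the regions most factor maxima lay away from start sites. Of the SOX2 maxima in them, 19% ± 1.83 were within 1 kb of a start site in DP (n = 3) and 20.9% ± 2.48 in the pluripotent libraries (n = 7), a difference of -1.86 points within the spread (exact permutation test, p = 0.3, adjusted p = 0.33), which lay between -3.14 with protein-coding start sites only and -0.33 with equal peak numbers and was -0.8 without DP B. These shares are close to the 18% of bases that lie as near. For GATA6 they were 16.7% ± 2.73 in DP and 23.7% ± 1.32 in nEnd, a difference of -6.97 points, with p = 0.2 the smallest possible (exact permutation test, adjusted p = 0.244). With 1391 peaks from each library this last difference was -0.05 points.

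In 200-base windows at SOX2 maxima within the regions, CTTTGT stood in 41.1% to 56.3% of windows by library and CATTGT in 26.1% to 37.9%, against 17.8% and 9.84% of all 313435 such windows tiled along the regions. AGATAA, at 10.9% of tiled windows, stood at 14.4% and 14.6% of SOX2 maxima in 2iLIF (B9, B12), 11.1% and 13.6% in NACL, 14.3%, 12.7% and 14.8% in SOX2+ (A, A1, B) and 27.8%, 28.7% and 24.3% in DP. Each DP library exceeded every pluripotent one. The same held for maxima outside the regions, with 29.2%, 29.9% and 18% in DP (A, A1, B) and 10.7% to 11.7% in the pluripotent libraries. Among the 1378 strongest SOX2 peaks of each library the shares were 24.3% to 30.5% in DP and 15.7% to 18.6% in the others.

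The same letters were under most GATA6 maxima in DP, with 66.3%, 73.3% and 80.2% of them (A, A1, B), and under 51.2% and 47.7% in nEnd (B9, B12). Among the 1391 strongest peaks of each library these became 80.2% to 81.8% and 71.4% to 72.8%. Maxima within 1 kb of start sites held AGATAA less often than those beyond in all 15 libraries, for example 38.7% ± 2.34 against 52.8% ± 2.28 for GATA6 in nEnd (n = 2) and 22.7% ± 1.16 against 27.9% ± 3.15 for SOX2 in DP (n = 3). All windows along the regions had this order too, with AGATAA in 8.94% within 1 kb and 11.3% beyond. GGGCGG showed the reverse both in all windows, at 13.2% against 2.74%, and at GATA6 maxima in nEnd, at 24.8% ± 1.41 against 5.19% ± 0.04.

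**Figure D5:**
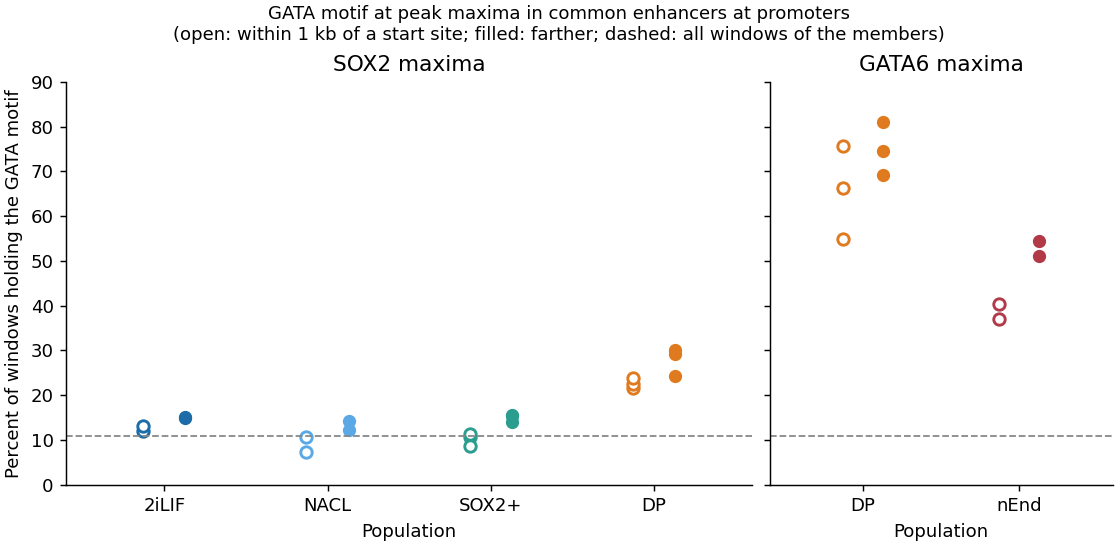
Percent of 200-base windows at SOX2 (left) and GATA6 (right) maxima in common enhancers at promoters that hold AGATAA, by population, with 1 dot per library. Open dots are maxima within 1 kb of a start site, filled dots those beyond, and the dashed line is the 10.9% of all windows along the regions.

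The histone marks of sorted KOSR cells took no part in the rule and were found across the class. H3K4me1 peaks overlapped 2066 and 2080 of the 2085 regions in SOX2+ cells (A, B) and 2084 in DP A. The DP A list also overlapped 99.5% of common distal, 98.4% of pluripotency and 91.2% of PrE enhancers at promoters, and the SOX2+ lists 97.3% and 98.6%, 95.1% and 97.3%, and 62.3% and 71.3% of them. H3K27ac peaks overlapped 1526 and 1511 regions in SOX2+ (73.2% and 72.5%) and 2002 in DP A (96%), from lists of 13514, 14722 and 76260 peaks. DP has 1 library, and the part of peak number in the difference was not tested. In both SOX2+ libraries H3K27ac was found at fewer of the other classes, 43.2% and 42.4% of common distal, 46.9% and 45.5% of pluripotency and 25.9% and 26.2% of PrE enhancers at promoters. In DP A these shares were 85.3%, 74.4% and 65.6%. By bases, H3K27ac covered 14.9% and 16.1% of common enhancers at promoters in SOX2+, against 12.1% and 12.5% of common distal and 14.5% and 15% of pluripotency enhancers at promoters.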

How the data were processed

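Peak lists of 35 CUT&RUN libraries were used, of which 33 were placed in a group and 2 were not, since their own labels conflict. The submitters' processing notes name cutadapt 1.18, Bowtie2 2.3.4.1, SAMtools 1.9, Picard 2.9.1, bedtools 2.27.1 and deepTools 3.2.0, and the authors called peaks with SEACR against IgG controls. The deposited lists give each peak's position on GRCm38 with its total and maximum signal, coverage on the library's own scale, which was used only to rank peaks and place maxima. By their names, histone lists were called in SEACR's relaxed setting and factor lists in the stringent one, while the study's methods have it the other way round. Read depth is unknown, and peak numbers limit what a library can show.

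Intervals were computed in Python 3.11.15 with NumPy 2.4.6, pandas 2.3.3 and pysam 0.24.0, on chromosomes 1 to 19, X and Y, with start sites of GENCODE M21 and promoters and miRNAs of RefSeq. Shares were compared with exact permutation tests and within-library ratios with exact sign flips, 2-sided, with Benjamini-Hochberg adjustment over 11 tests and a threshold of 0.05, after the functions were checked on simulated data. P-values measure the spread between samples, which may be technical. Genes named were those at the 10 widest regions, the 5 with most SOX2 and 5 with most GATA6 peaks per kb among those of at least 5 kb, the 5 widest with peaks in all 15 libraries, the 2 nearest the 1 kb limit on each side, and genes of the lists. One of the 10 widest regions and some list members are not reported here. The members and lists were chosen with earlier results of these data known. No peak list of the 18 IgG samples was used here.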

Additional observations from a re-analysis of the deposited data

How the results depend on the processing

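The number of common enhancers at promoters was 4768 when a peak in either library was enough and 997 when only the stronger 50% of histone peaks was used, and it ranged from 2049 to 2874 when 1 histone library of each mark was left out. With regions holding a peak in place of peaks per Mb, the log2 ratios turned to 0.13 (SOX2) and 0.097 (GATA6) against common distal enhancers, to 0.66 for GATA6 against PrE enhancers at promoters and to 0.67 for SOX2 against pluripotency enhancers at promoters. The SOX2 turns were called (exact sign-flip test, adjusted p = 0.00716 each) and the GATA6 turns were not. The part of width in these turns was not tested. With a peak in either library, GATA6 against PrE enhancers at promoters was 0.046 (the cause was not tested). Within 1 kb of start sites, a choice made after seeing the data, SOX2 against pluripotency enhancers at promoters was -0.23 and was no longer called. Leaving out 1 factor library, the difference in SOX2 share between DP and pluripotent libraries ranged from 4.99 to 6.56 points and was not called in any of the 10 cases, and the SOX2 ratio against pluripotency enhancers at promoters ranged from -0.43 to -0.34 and was not called in 8 of 10. Both tests then have fewer libraries. Within an experiment, DP and SOX2+ libraries deviated from their group means in region presence with correlations of 0.0282, 0.0047 and 0.00563. These do not settle whether the experiments are paired. SOX2 peak numbers had the same order in both, with 4859, 5320 and 1378 in DP and 16819, 20609 and 10513 in SOX2+ (A, A1, B). With the experiment as a replicate block the difference in SOX2 share was 4.92 points (exact sign-flip test, p = 0.25, the smallest possible). The remaining 91 values under other settings and 71 with a library left out kept their direction and their side of the threshold or, for the number of regions, stayed within 1.5 times.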

Other observations

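A pair of KOSR histone libraries of experiment B, whose title and source name give different sorted populations, entered no comparison. Their H3K4me1 list (94492 peaks) overlapped 2082 of the 2085 common enhancers at promoters and covered 44.8% of their bases. Their H3K27ac list (19185 peaks) overlapped 1651 (79.2%) and covered 19%.

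Gene groups outside the pluripotency and endoderm networks were also described by counts beside the 11.1% of all protein-coding genes. Of 67 replication-dependent histone genes 15 stood at common enhancers, 12 at PrE enhancers at promoters (which reached 10.15% of all protein-coding genes) and none at pluripotency enhancers at promoters (7.87%). At common enhancers stood, of 54 splicing factors, 14, of 75 heat shock and chaperone genes 18, of 18 glycolytic enzymes 5, of 33 replication factors 6, of 25 cyclins and CDKs 4, of 15 snoRNA host genes 2, of 20 epithelial junction and keratin genes 6 and of 13 trophoblast regulators 2. The snoRNA host genes were matched among all gene types, so the protein-coding background does not apply to them. Of 20 SOX factors only Sox15 stood at a common enhancer.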
